A study of Homo sapiens with 2 samples.

Results

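The genes described are a group of innate defence genes, measured by RNA sequencing of a human cell line given a kinase inhibitor: the complement genes C3, CFB, CFD and C5, the serum amyloid A genes SAA1 and SAA2, the lipocalin gene LCN2, and the antiprotease genes PI3 and SLPI. They were found by symbol, 9 of the 60527 genes in the deposited table, and each symbol matched 1 entry. The genes were chosen with their difference between the libraries known, so their values are given as a description and no test was made on them. A culture received JNJ-7706621, which blocks CDKs and the Aurora kinases of mitosis, at 1.75 µM for 48 h, and the other culture received its solvent DMSO for 48 h. Both carry the label SK-MEL-2, the name of a line derived from a melanoma. Each group has 1 library that the labels identify, so no difference below has a replicate check. The title of the series speaks of AUF1, a protein that binds mRNA, and neither binding nor decay was measured here.

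Complement is a cascade of plasma proteins that mark and lyse microbes. In its alternative pathway, factor D (CFD) cuts factor B (CFB) to form the enzyme that cleaves C3, and the cleavage of C5 then starts the lytic pore. Serum amyloid A proteins are apolipoproteins of the acute phase, made in liver and also in inflamed epithelia. Lipocalin 2 withholds iron from bacteria by binding their siderophores, and elafin (PI3) and SLPI are small inhibitors that shield mucosal surfaces from neutrophil elastase. Genes of this kind are classically induced by interleukin 1, interleukin 6 and tumour necrosis factor through NF-kB, C/EBP and STAT3.

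Sequences are shown first for the pair of genes that are hardest to tell apart and for the promoters that can be set beside a large difference. SAA1 and SAA2, neighbours on chromosome 11, have coding sequences of 366 bases each in GENCODE release 29, and these differ at 11 positions (97.0% identity). The longest run of identical bases is 186. The stretch from position 174 to 323 of each coding sequence, counted from the first base of the start codon, holds 10 of the differences, which are in capitals.
SAA1: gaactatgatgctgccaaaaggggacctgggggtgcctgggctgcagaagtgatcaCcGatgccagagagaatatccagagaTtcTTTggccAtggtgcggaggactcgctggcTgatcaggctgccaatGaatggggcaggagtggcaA
SAA2: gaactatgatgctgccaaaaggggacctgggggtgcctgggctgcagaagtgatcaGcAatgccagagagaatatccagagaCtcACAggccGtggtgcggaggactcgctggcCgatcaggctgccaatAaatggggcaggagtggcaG
Of the distinct 50-base windows of annotated SAA2 transcripts, 17.9% also occur in an SAA1 transcript. The way reads that match both genes were counted is not given in the sources used here, so the division of reads between SAA1 and SAA2 is uncertain.

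Promoters were at hand for 4 of the 9 genes, CFB, CFD, C5 and LCN2, from RefSeq on GRCh38.p14. Shown are the 250 bases before the start of LCN2 (chr9:128149203-128149452, plus strand) and of CFD (chr19:859414-859663, plus strand), the genes of the 4 whose levels differed most between the libraries on the log2(FPKM + 1) scale. Capitals mark matches, on either strand, to 5 patterns. For NF-kB these are GGG and CC with 5 bases of any kind between them, and a stricter form with GGGA and TTTCC on either side of 1 base of any kind. The others are TTGCNNAA for C/EBP, TTCNNNGAA for STAT and TGANTCA for AP-1.
LCN2: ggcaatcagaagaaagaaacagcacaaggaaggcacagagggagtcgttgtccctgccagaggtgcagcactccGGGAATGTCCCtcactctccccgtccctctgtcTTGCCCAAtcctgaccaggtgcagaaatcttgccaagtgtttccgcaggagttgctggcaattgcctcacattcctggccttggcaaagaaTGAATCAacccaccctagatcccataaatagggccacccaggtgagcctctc
CFD: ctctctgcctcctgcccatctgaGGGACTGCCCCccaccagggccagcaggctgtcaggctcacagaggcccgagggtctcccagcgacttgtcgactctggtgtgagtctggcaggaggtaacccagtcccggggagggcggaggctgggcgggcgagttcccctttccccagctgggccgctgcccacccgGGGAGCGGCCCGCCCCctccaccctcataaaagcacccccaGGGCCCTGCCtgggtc
The LCN2 window held 2 overlapping matches to the broad NF-kB pattern, from 176 bases before the start, 1 match to the C/EBP pattern and 1 to the AP-1 pattern. In the CFD window, with 70.8% G and C, there were 6 matches to the broad NF-kB pattern, some of them overlapping, and 0 to the others. The CFB window held 4 matches to the broad NF-kB pattern and 1 to the STAT pattern, while the windows at the 2 listed starts of C5 held 1 match to the broad NF-kB pattern in all. These letters are common: of 34796 promoter windows of this length, 54.4% held the broad NF-kB pattern, 9.05% the C/EBP, 6.57% the STAT and 6.59% the AP-1 pattern. The strict NF-kB pattern was in 0.529% of all windows and in none of those of CFB, CFD, C5 and LCN2. A match is a string of letters and not a measured binding site.

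Values are FPKM, reads scaled to the exon length of the gene and to the library total. Levels can be compared between genes as far as that length fits the transcripts present. The library totals behind them, recovered from the values, were 22817719 reads in the JNJ-7706621 library and 23377161 in the DMSO library. Ranges in parentheses are 95% counting intervals, which cover counting error only. The markers of the labelled cell type were mostly near 0 in both libraries: of 8 melanocyte markers 2 (PMEL and MITF) reached a mean of 1 FPKM, TYR and PAX3 had 0 reads in both, and the sum over the list was 6.25 FPKM with JNJ-7706621 and 4.92 FPKM with DMSO. Of 8 epithelial markers 7 reached it, and their sum was 2271 FPKM with JNJ-7706621 and 2269 FPKM with DMSO. Other cells known to make proteins of this group left few reads. Summed levels were 1.20 and 1.11 FPKM for 8 hepatocyte markers, 1.55 and 0.835 FPKM for 8 macrophage markers, 0.487 and 0.428 FPKM for 8 neutrophil markers and 0.170 and 0.123 FPKM for 6 adipocyte markers, each with JNJ-7706621 first and DMSO second. ADIPOQ, LEP and FABP4 of adipocytes, APOA1, APOA2 and TTR of hepatocytes, CD163 and MRC1 of macrophages and the leukocyte gene PTPRC had 0 reads in both libraries. Sums over 8 fibroblast and 6 leukocyte markers were 1.32 and 1.84 FPKM with JNJ-7706621 and 0.264 and 1.70 FPKM with DMSO. The part of these cell types in the results was not tested. In bulk RNA fewer cells that express a gene cannot be told apart from less RNA per cell.

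The serum amyloid A and elafin genes stood several-fold higher in the JNJ-7706621 library, LCN2 was 1.93 times as high and at a much higher level, C3 and SLPI were about equal, and CFD stood lower. With a gene called higher or lower when log2(FPKM + 1) differed by at least 1 and the mean was at least 1 FPKM, SAA1, SAA2 and PI3 were higher and CFD was lower. The 4 others that reached a mean of 1 FPKM were not called, and CFB was under the filter. Of all 13241 genes measured by the same filter, 2.39% were called higher, 1.36% lower and 3.75% either way. Among the 10167 protein-coding ones, as all 9 are, 1.79% were called higher and 0.62% lower. Since the genes were picked from this comparison, their share is not read against that background. The called gene nearest to the limit was SAA2, with a log2 difference of 1.37, and the nearest one not called was LCN2, with 0.95.

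**Figure D1:**
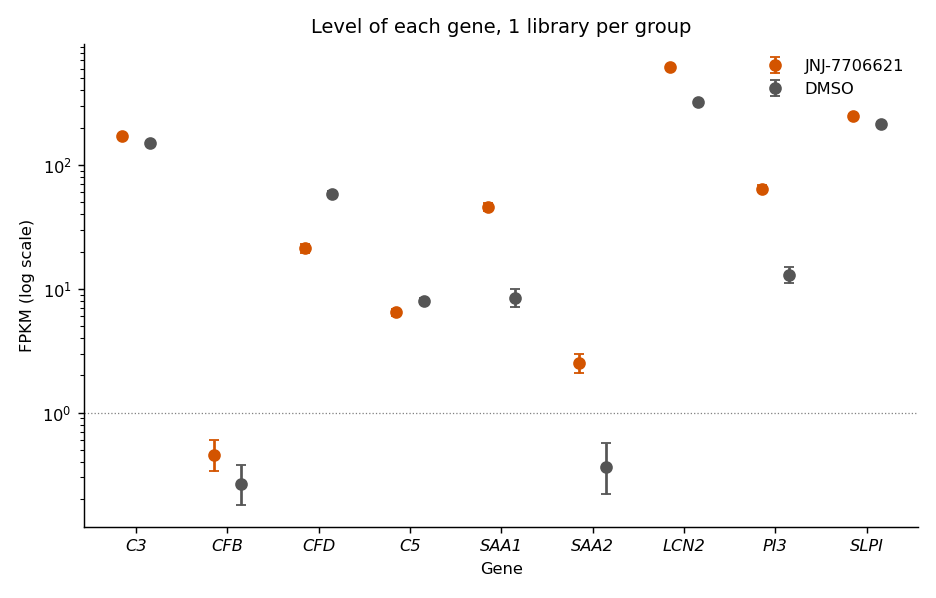
FPKM on a log scale for each of the 9 genes in the JNJ-7706621 library (orange, left) and the DMSO library (grey, right), 1 library each, with exact 95% counting intervals as bars and a dotted line at 1 FPKM. LCN2 is the highest of the 9 in both libraries, at 623 FPKM with JNJ-7706621 and 323 FPKM with DMSO, and CFD is the gene with a large step down.

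Complement genes differed in direction. Positions are those of GENCODE release 29 on GRCh38. C3 (ENSG00000125730, chr19:6677704-6730562), the protein on which all complement pathways meet, stood at 173 FPKM (171 to 175) in the JNJ-7706621 library and 150.1 FPKM (148 to 152) in the DMSO library. The ratio was 1.15 (1.14 to 1.17), a small difference measured on 32758 reads with JNJ-7706621 and 29103 reads with DMSO. C3 ranked 220 among all genes by FPKM with JNJ-7706621 and 241 with DMSO, so its place among abundant mRNAs was much the same.

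CFD (ENSG00000197766, chr19:859643-863630), the serine protease adipsin that activates factor B, stood at 21.3 FPKM (19.6 to 23.1) in the JNJ-7706621 library and 58.5 FPKM (55.7 to 61.4) in the DMSO library. The ratio was 0.363 (0.330 to 0.399), on 588 reads with JNJ-7706621 and 1658 with DMSO. Its log2 difference of -1.42 ranked 62 from the lowest among the 13241 measured genes. C3 mRNA was thus 8.14 times as abundant as CFD mRNA with JNJ-7706621 and 2.56 times with DMSO.

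C5 (ENSG00000106804, chr9:120952335-121050276), the source of the anaphylatoxin C5a and of the first piece of the lytic pore, stood at 6.49 FPKM (6.08 to 6.91) in the JNJ-7706621 library and 7.98 FPKM (7.54 to 8.44) in the DMSO library, a ratio of 0.813 (0.746 to 0.885). CFB (ENSG00000243649, chr6:31945650-31952084), which supplies the catalytic part of the alternative pathway enzyme, had 52 reads with JNJ-7706621 and 31 with DMSO. Its levels were 0.456 and 0.265 FPKM, with a ratio of 1.72 (1.08 to 2.77). Exons of other genes, C2 and the readthrough gene AL645922.1, overlap 45.5% of the annotated exon length of CFB, so its low value depends on how shared reads were counted. CFB was thus the lowest of the 9 genes in both libraries.

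Summed over the 4 complement genes, the level was 201 FPKM with JNJ-7706621 and 217 FPKM with DMSO, most of it C3. All 4 had counting intervals apart from a ratio of 1. Over the 9 genes the interval lay above 1 for 7 and below 1 for CFD and C5. Of all measured genes with recovered reads 65.9% had such an interval, 32.8% above 1 and 33.2% below, so at this depth it sets no gene apart.

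**Figure D2:**
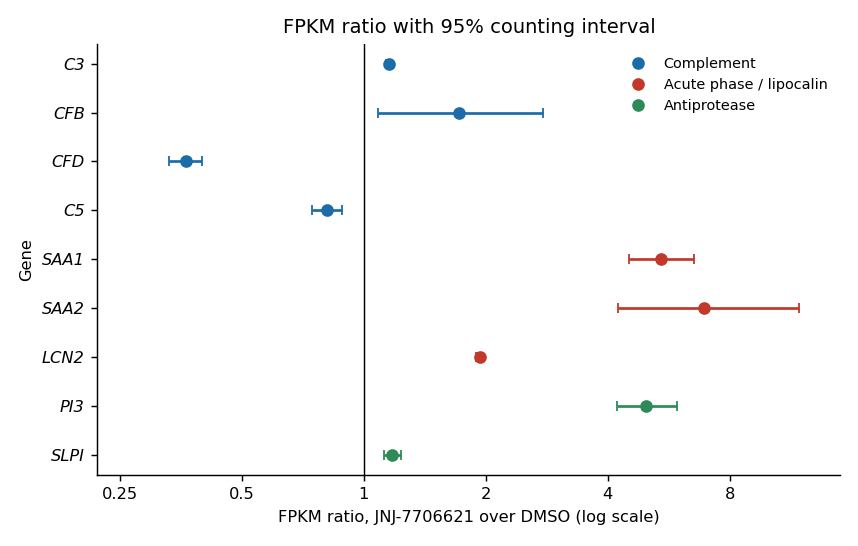
FPKM ratio of the JNJ-7706621 library over the DMSO library on a log scale for the 9 genes, with exact 95% counting intervals (1 library per group, no replicate error). SAA1, SAA2 and PI3 lie between 4.98 and 6.90, LCN2 at 1.93, C3 and SLPI near 1.2, C5 at 0.813 and CFD at 0.363.

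The serum amyloid A genes, whose products travel on high density lipoprotein in the acute phase, showed the largest ratios of the 9. The counting intervals of both overlapped that of PI3. SAA1 (ENSG00000173432, chr11:18266174-18269977) stood at 45.9 FPKM (42.6 to 49.3) in the JNJ-7706621 library and 8.50 FPKM (7.15 to 10.0) in the DMSO library, on 743 and 141 reads. The ratio was 5.40 (4.50 to 6.51), and its log2 difference of 2.30 ranked 11 from the highest among measured genes. SAA2 (ENSG00000134339, chr11:18239223-18248643), on the other strand 17.5 kb away, stood at 2.52 FPKM (2.10 to 3.00) in the JNJ-7706621 library and 0.365 FPKM (0.220 to 0.570) in the DMSO library, on 128 and 19 reads. The SAA2 ratio was 6.90 (4.24 to 11.8), an interval that overlaps that of SAA1, and SAA2 passed the filter only through its level with JNJ-7706621. By FPKM SAA1 stood at 18.2 times the level of SAA2 with JNJ-7706621 and 23.3 times with DMSO. These ratios rest on recovered exon lengths of 710 bases for SAA1 and 2227 bases for SAA2. The gap is smaller in reads, 743 and 128 with JNJ-7706621 and 141 and 19 with DMSO. Which exons of SAA2 were expressed was not tested. The printed stretches show how alike the genes are, and the pair as a whole summed to 48.4 FPKM with JNJ-7706621 and 8.86 FPKM with DMSO. The readthrough gene SAA2-SAA4 had 0 FPKM in both libraries, and SAA4, the constitutive member of the family, had 1 read with JNJ-7706621 and 0 with DMSO.

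LCN2 (ENSG00000148346, chr9:128149071-128153455), the siderophore-binding lipocalin, was the most abundant of the 9 genes in both libraries. It stood at 623 FPKM (615 to 631) in the JNJ-7706621 library and 323 FPKM (317 to 329) in the DMSO library, a ratio of 1.93 (1.89 to 1.97). The difference rested on 22686 reads with JNJ-7706621 and 12047 with DMSO. Its rank among all genes by FPKM was 59 with JNJ-7706621 and 112 with DMSO. LCN2 reads made up 0.0994% of the JNJ-7706621 library and 0.0515% of the DMSO library. In absolute level LCN2 differed more than SAA1 and PI3 did, although its log2 difference of 0.95 stayed under 1.

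The antiproteases PI3 and SLPI lie 75.7 kb apart on chromosome 20 and differed by very different amounts. PI3 (ENSG00000124102, chr20:45174876-45176544), which encodes elafin, stood at 64.6 FPKM (60.2 to 69.2) in the JNJ-7706621 library and 12.97 FPKM (11.1 to 15.1) in the DMSO library, on 812 and 167 reads. The ratio was 4.98 (4.21 to 5.92), and its log2 difference of 2.23 ranked 16 from the highest. SLPI (ENSG00000124107, chr20:45252239-45254564), the secretory leukocyte protease inhibitor, stood at 250.2 FPKM (242 to 259) in the JNJ-7706621 library and 213 FPKM (205 to 221) in the DMSO library, on 3403 and 2964 reads. Its ratio was 1.18 (1.12 to 1.24), and its counting interval does not meet that of PI3. SLPI mRNA was 3.87 times as abundant as PI3 mRNA with JNJ-7706621 and 16.4 times with DMSO.

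In the JNJ-7706621 library the order of the levels was LCN2, SLPI, C3, PI3, SAA1, CFD, C5, SAA2 and CFB, and no neighbours in that order had overlapping counting intervals. In the DMSO library it was LCN2, SLPI, C3, CFD, PI3, SAA1, C5, SAA2 and CFB. There the interval of SAA1 overlapped that of C5, and that of SAA2 overlapped that of CFB. The first 3 places were thus shared, and the place of CFD after C3 in the DMSO library was held by PI3 and SAA1 in the JNJ-7706621 library. Summed over the 9 genes the level was 1187 FPKM with JNJ-7706621 and 774 FPKM with DMSO, and LCN2 accounted for most of that step.

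Exon length and base composition of the genes were set beside the differences, because short genes were called more often than long ones. Recovered exon lengths were 551 bases for PI3, 596 for SLPI, 710 for SAA1, 1212 for CFD and 1596 for LCN2, against a median of 4164.5 over measured genes. Among measured genes of 400 to 800 bases, 3.71% were called higher, SAA1 and PI3 among them. Genes of about the exon length of PI3 (717 genes) had a median log2 difference of 0.02, and those like SAA1 (574 genes) one of -0.01 (a gene counted as alike when the shorter of the pair had over 0.8 times the length of the longer). CFD had the highest GC content of the 9, at 65.4% of its longest transcript, and 2.29% of the 787 measured genes within 2.5 percentage points of it were called lower. After removal of the dependence on exon length and GC content, a step chosen after the data were seen, the log2 difference was 2.20 for SAA1, 2.15 for PI3, 0.90 for LCN2 and -1.32 for CFD.

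**Figure D3:**
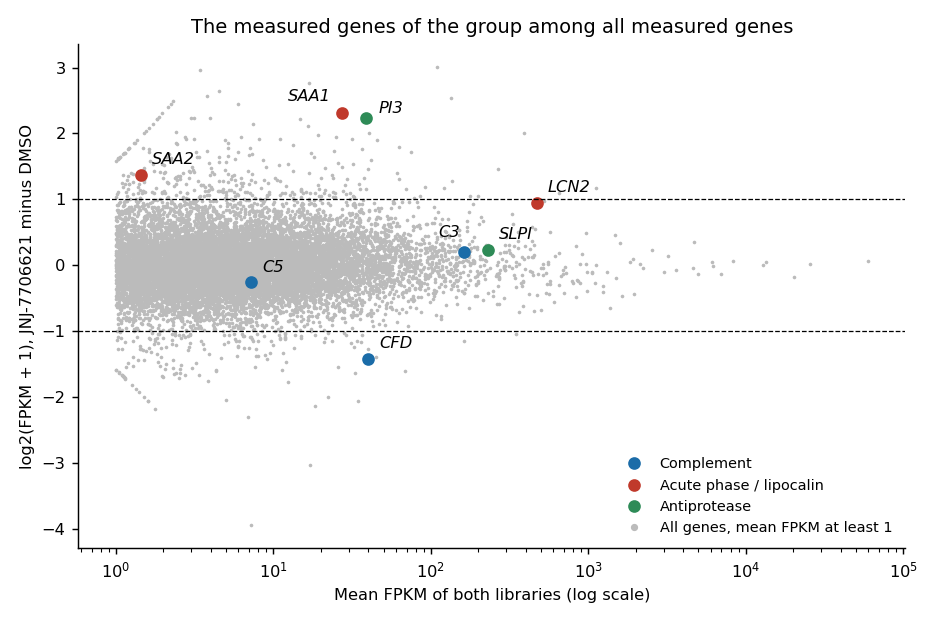
Difference in log2(FPKM + 1), JNJ-7706621 minus DMSO, against mean FPKM (log scale) for the 13241 genes with a mean of at least 1 FPKM (grey) and the 8 measured genes of the group (coloured by role), with dashed lines at the limits of 1 and -1. SAA1 and PI3 stand at 2.30 and 2.23, LCN2 at 0.95 among abundant genes, and CFD at -1.42.

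The other complement proteins were mostly not expressed. Of 24 listed proteins of the classical, lectin and terminal pathways, 2 reached a mean of 1 FPKM, 0 were called and 12 were at 0 in both libraries. C1S, a protease of the first complement complex, stood at 25.3 FPKM with JNJ-7706621 and 18.0 FPKM with DMSO, a ratio of 1.40 (1.33 to 1.47). C1R, its partner protease, stood at 3.81 FPKM with JNJ-7706621 and 4.66 FPKM with DMSO, a ratio of 0.817 (0.725 to 0.920). These paired proteases thus differed in opposite directions by small amounts, and C1QA, a chain of the recognition molecule they serve, had 1 read with JNJ-7706621 and 0 with DMSO.

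Some inhibitors of complement stood lower in the JNJ-7706621 library. Of 17 listed inhibitors 7 were measured, 0 called higher and 1 called lower, with 5 below 0 and a median log2 difference of -0.65. Over all measured genes 50.4% lay below 0, with a median of -0.0032. With no filter the median of the inhibitors was -0.017. The shares of all measured genes were 2.39% called higher and 1.36% lower. This list was chosen with earlier results of these data known, so its values are not read against that background. VTN, which encodes vitronectin, an inhibitor of the lytic pore, was the called gene, at 4.79 FPKM with JNJ-7706621 and 10.9 FPKM with DMSO. The membrane cofactor CD46 stood at 48.7 FPKM with JNJ-7706621 and 93.8 FPKM with DMSO, a ratio of 0.520 (0.507 to 0.533) that left its log2 difference at -0.93. The decay-accelerating factor CD55 stood at 62.0 FPKM with JNJ-7706621 and 97.7 FPKM with DMSO. C4BPA, a chain of the C4b-binding protein, had a log2 difference of -0.70. On the other side of 0 were CLU (clusterin), at 49.5 FPKM with JNJ-7706621 and 33.4 FPKM with DMSO, and CD59, with a ratio of 1.08 (1.04 to 1.13).

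Complement receptors were scarce. Of 11 listed, 2 were measured and 0 called. C1QBP, a mitochondrial protein that can bind C1q, stood at 200.1 FPKM with JNJ-7706621 and 139 FPKM with DMSO, and ITGB2, the beta chain of leukocyte integrins, at 1.84 FPKM with JNJ-7706621 and 1.69 FPKM with DMSO. Receptors for the C3a and C5a fragments were under the filter: C5AR1 had 42 reads with JNJ-7706621 and 56 with DMSO, and C3AR1 had 1 and 0.

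Other acute phase genes differed in direction. Of 27 listed, 6 were measured, of which 1 was called higher and 4 lower. Among all measured genes 2.39% were called higher and 1.36% lower. The list was chosen with earlier results of these data known, and its share is not read against that background. The median log2 difference of its measured genes was -1.43, and it was 0.0031 with no filter on low values. PTX3, a long pentraxin made at sites of inflammation, was the gene of the list called higher. It stood at 5.82 FPKM with JNJ-7706621 and 0.454 FPKM with DMSO, a ratio of 12.8 (8.12 to 21.3) on 250 and 20 reads. PTX3 passed the filter only through its level with JNJ-7706621. The genes called lower were the fibrinogen chain genes FGA, FGB and FGG, neighbours on chromosome 4, and FGL1, a fibrinogen-like protein of liver. Their log2 differences were -2.07, -3.03, -1.77 and -1.08, so related genes make up this count. CP, ceruloplasmin, stood at 3.53 FPKM with JNJ-7706621 and 4.91 FPKM with DMSO and was not called. Under the filter, and named after their values were seen, SERPINA1, A2M and AHSG had 65, 20 and 38 reads with JNJ-7706621 and 25, 3 and 14 reads with DMSO. Others of the 21 under the filter did not share that direction. RBP4 and HP, also named after their values were seen, had 17 and 1 reads with JNJ-7706621 and 18 and 5 with DMSO. The liver pentraxin CRP, named after its value was seen, was at 0 FPKM in both libraries.

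Several other genes of mucosal defence were higher in the JNJ-7706621 library. Of 37 listed, 10 were measured, 6 were called higher and 0 lower, with a median log2 difference of 1.16, and 9 of the 10 lay above 0. The median was 0.12 with no filter, and 3 were called higher at a mean of at least 5 FPKM. Among all measured genes 2.39% were called higher, 1.36% lower and 49.6% lay above 0. The list was chosen with earlier results of these data known, so its share is not read against that background. DMBT1, CCL28 and TFF1 passed the filter only through their level with JNJ-7706621. CCL20, a chemokine of epithelia, stood at 13.4 FPKM with JNJ-7706621 and 2.82 FPKM with DMSO, a ratio of 4.76 (3.85 to 5.94). S100A9, a subunit of calprotectin, stood at 98.0 FPKM with JNJ-7706621 and 27.5 FPKM with DMSO. Its partner S100A8 was far lower, at 2.71 FPKM with JNJ-7706621 and 1.01 FPKM with DMSO, with a log2 difference of 0.88.

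The defensin gene DEFB1 stood at 194 FPKM with JNJ-7706621 and 79.5 FPKM with DMSO, a ratio of 2.44 (2.23 to 2.67). SERPINB3, a protease inhibitor of squamous epithelia, had a ratio of 3.88 (2.75 to 5.59), and exons of other genes overlap 34.9% of its exon length. DMBT1, a scavenger receptor of mucosal surfaces, had a ratio of 5.12 (4.12 to 6.42) and the mucosal chemokine CCL28 one of 4.25 (3.20 to 5.73). MUC1, a membrane mucin, was the measured gene below 0, at 4.08 FPKM with JNJ-7706621 and 8.83 FPKM with DMSO. WFDC2, the family relative of PI3 and SLPI that many epithelia express, had 1 read in each library and was named after its value was seen.

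The proteins that the 9 products bind or inhibit were partly present. Of 16 such genes 4 were measured and 0 called. SCARB1, a lipoprotein receptor that can take up serum amyloid A, stood at 14.6 FPKM with JNJ-7706621 and 7.79 FPKM with DMSO, with a log2 difference of 0.83. TGM2, a transglutaminase, stood at 156 FPKM with JNJ-7706621 and 127 FPKM with DMSO, PLSCR1 at 10.4 and 6.92 FPKM, and GRN, progranulin, at 32.7 and 38.9 FPKM. ELANE, the elastase that PI3 and SLPI inhibit, had 1 read with JNJ-7706621 and 5 with DMSO, and the LCN2 receptor gene SLC22A17 had 4 and 2. ELANE and SLC22A17 mRNA were thus near 0 in cultures with much mRNA of the inhibitors and of the lipocalin. Protein was not measured.

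Among 38 genes for cytokines, receptors and transcription factors of the acute phase response, 26 were measured, 2 called higher and 0 lower, with a median log2 difference of 0.06. The shares of all measured genes were 2.39% called higher and 1.36% lower. As this list was chosen with earlier results of these data known, its share is not read against that background. IL1A, interleukin 1 alpha, had 272 reads with JNJ-7706621 and 20 with DMSO, a ratio of 13.9 (8.85 to 23.2). IL1A passed the filter only through its level with JNJ-7706621. At a mean of at least 5 FPKM 1 gene of the list was called higher. NFKB2, an NF-kB subunit, stood at 31.9 FPKM with JNJ-7706621 and 10.9 FPKM with DMSO. NFKBIA and NFKBIZ, feedback regulators of NF-kB, had log2 differences of 0.94 and 0.84, RELB one of 0.75, and SOCS3, the feedback inhibitor of STAT3 signalling, one of -0.80.

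Further genes of this list were named after their values were seen. IL1B, IL6 and TNF were under the filter, with 91, 49 and 25 reads in the JNJ-7706621 library and 4, 3 and 4 reads in the DMSO library. The factors CEBPB, CEBPD, STAT3 and RELA had log2 differences of 0.01, 0.08, 0.07 and 0.04. NFKB1 and CEBPA of the same families had log2 differences of 0.74 and -0.29, so levels within a family differed by unequal amounts. The protein activity of these factors was not measured.

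**Figure D4:**
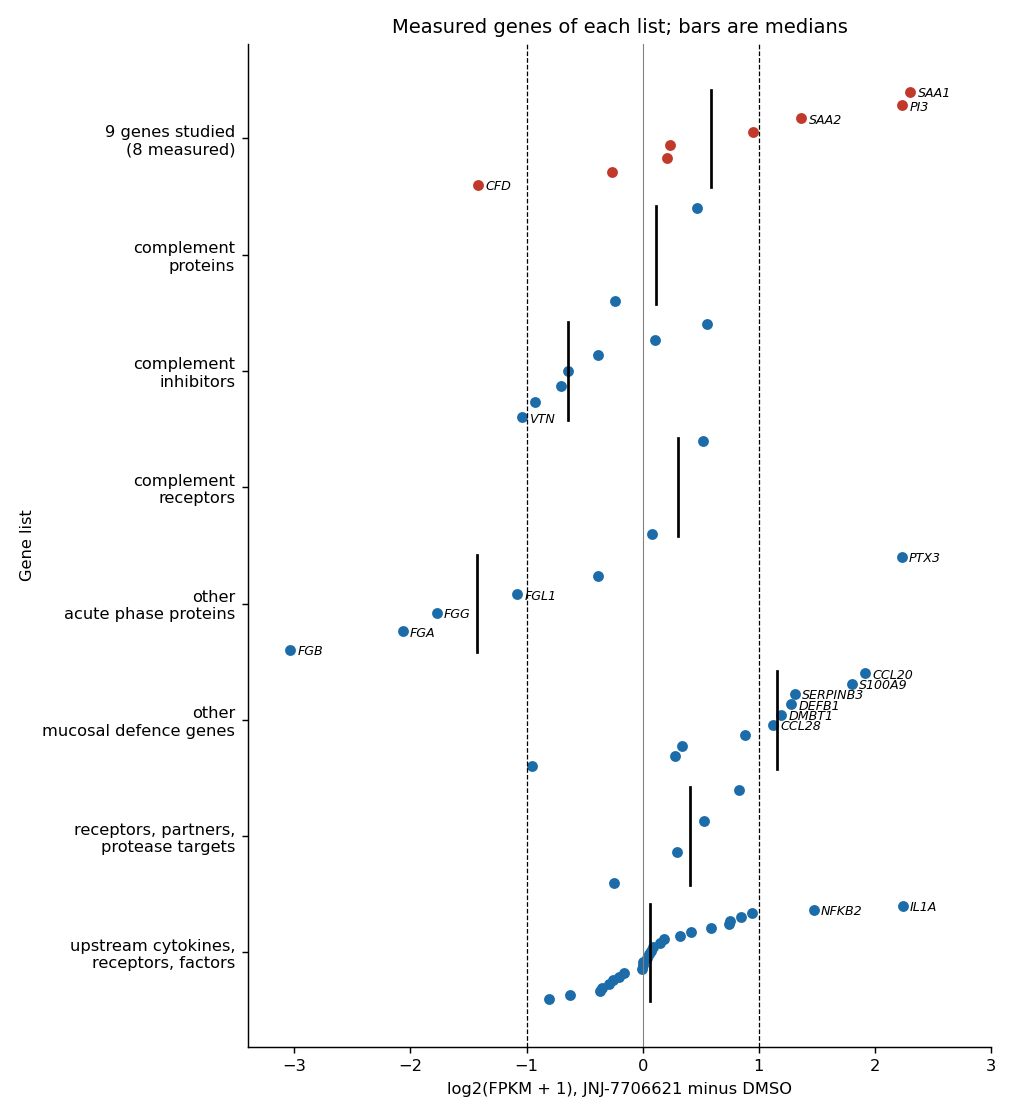
Difference in log2(FPKM + 1), JNJ-7706621 minus DMSO, of each measured gene (points, mean of at least 1 FPKM) in the group studied (red) and in 7 related lists (blue), with black bars at the medians and dashed lines at 1 and -1. Points are spread vertically only for legibility. Medians run from -1.43 for the other acute phase genes to 1.16 for the other mucosal defence genes.

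Neighbouring genes within 250 kb were listed to see whether a difference was shared along the chromosome. Around SAA1 and SAA2 it was not: HPS5, 8.69 kb from SAA1, and SAAL1, 133 kb from SAA2, had log2 differences of -0.01 and 0.06. Around LCN2 the nearest measured gene on each side, C9orf16 at 6.80 kb and PTGES2 at 20.6 kb, had differences of -0.23 and 0.05. Of 18 neighbours 0 were called, as LCN2 itself was not, with 8 above 0 and 10 below. FAM102A, 169 kb from LCN2 and named after its value was seen, had a ratio of 1.91 (1.80 to 2.03), near that of LCN2. Near PI3 and SLPI, SDC4, which encodes the proteoglycan syndecan 4, was called higher, at 230 FPKM with JNJ-7706621 and 38.6 FPKM with DMSO. SDC4 lies 70.7 kb from SLPI, so SLPI with its ratio of 1.18 sits between PI3 and SDC4, whose ratios were 4.98 and 5.96. The kinase gene STK4, on the other side of PI3 at 94.9 kb, had a difference of 0.29. TOMM34, further out on that side at 214 kb and named after its value was seen, had one of 0.89. Of the 7 measured neighbours of PI3, SLPI and SDC4 among them, 6 lay above 0 and 1 below, with a median of 0.29.

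Around CFD, all 20 measured neighbours lay below 0, with log2 differences from -1.06 to -0.03 and a median of -0.28, against 50.4% below 0 among all measured genes. MED16, a Mediator subunit gene 4 kb from CFD, had a difference of -0.68, PTBP1, a splicing regulator gene 47.3 kb away on the other side, one of -0.31, and HCN2, an ion channel gene at 242 kb, was called lower with -1.06. The region is rich in G and C, with a median of 64.0% over the longest transcripts of these neighbours, and after removal of the dependence on exon length and GC content 19 of the 20 lay below 0, with a median of -0.25. This pattern was noticed after the values were seen, and neighbours with overlapping exons can share reads. CFD itself, chosen with its difference between the libraries known, lay further from 0 than each of the 20.

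The nearest measured neighbour on each side of C3 (GPR108 and CD70) had differences of -0.19 and 0.82, and on each side of C5 (TRAF1 and RAB14) -0.13 and -0.07. CD70 passed the filter only through its level with JNJ-7706621. It had 63 reads with JNJ-7706621 and 21 with DMSO, a ratio of 3.07 (1.85 to 5.30). At CFB, NELFE had a difference of -0.10 and ZBTB12, a zinc finger gene 43.7 kb away, was called lower with -1.24. ZBTB12 stood at 0.826 FPKM with JNJ-7706621 and 3.31 FPKM with DMSO, so it passed the filter only through its level with DMSO. RNU6-850P, called higher at 189 kb from CFB, rested on 8 reads with JNJ-7706621 and 2 with DMSO.

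**Figure D5:**
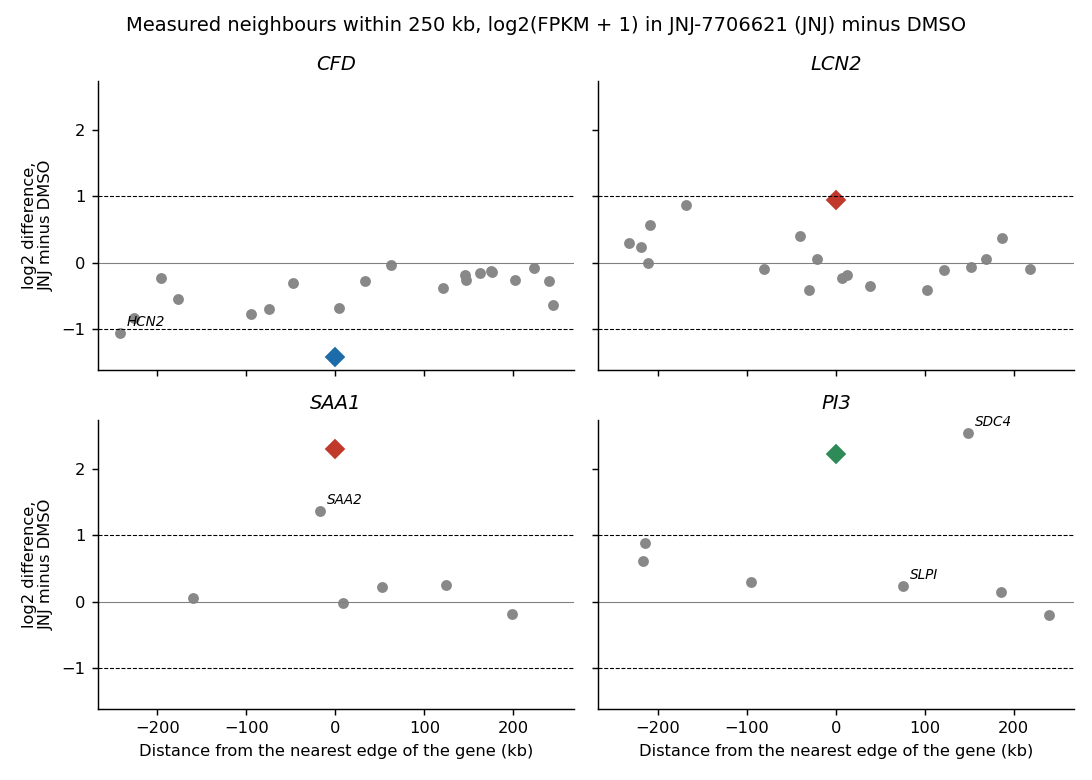
Difference in log2(FPKM + 1), JNJ-7706621 minus DMSO, of measured genes within 250 kb (grey) by distance in kb from the nearest edge of CFD, LCN2, SAA1 and PI3 (coloured diamonds at 0), with dashed lines at 1 and -1. All 20 neighbours of CFD lie below 0, while those of LCN2 and SAA1 other than SAA2 scatter around 0 and SDC4 stands out beside PI3.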

How the data were processed

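The authors deposited FPKM values for genes with Ensembl identifiers and symbols. The unit is taken from the name of the deposited table, and the recovered whole reads fit it. The submitters' processing notes name the build hg38 and edgeR, without a role. Which aligner, counter and annotation they used, and whether counting was stranded, is not given in the sources used here. Columns were matched to samples by their names, and 2 further value columns were not used. The names of these end in 2 where those used end in 1, and they match no sample in the labels used here. Where the values set it, exon length and library total were recovered as those for which FPKM gives whole reads (within 1e-04) in both libraries. The search began from GENCODE release 29 exon lengths and allowed 0.25 to 4 times that length. Reads were recovered for 27805 of 28711 genes above 0 and made up 99.7% of each total. They served for counting intervals (exact Clopper-Pearson for ratios, exact Poisson for levels) and not for a test. Differences are log2(FPKM + 1), which understates those of low genes. Genes are named by this rule: the 9 genes, up to 6 measured genes with the largest difference per list, every called gene of a list, and of the neighbours the called ones and the nearest on each side. One gene under this rule is not reported here. Other genes, most of them under the filter, were named after their values were seen. The 9 genes, the 7 lists and the 8 marker lists were chosen with earlier results of these data known. With the 1 library per group that was used no test was possible. The alternatives were other pseudocounts, filters and scalings, and trends with exon length and GC content. Calculations used Python 3.11.15, pandas 2.3.3, SciPy 1.17.1 and Biopython 1.88 and were tested on simulated data. Planned comparisons of the protein sequences were not made, and SAA1 and SAA2 were compared by coding sequence.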

Additional observations from a re-analysis of the deposited data

How the results depend on the processing

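The log2 differences of the 9 genes kept their direction under every alternative that measured them, with 3 called higher and 1 lower in each except at a mean of at least 5 FPKM, where SAA2 was not measured and 2 were called higher. SAA2 ranged most, from 1.27 to 2.49 (a pseudocount of 0.1). Over all genes, 608 were called higher and 409 lower with a pseudocount of 0.1, and 274 lower with 0.5. Without a filter 28711 genes were measured. With a mean of at least 5 FPKM 7057 were measured, 145 called higher and 75 lower. After rescaling to a common sum 15964 genes were measured, against 13241 in the main setting, and 714 were called higher and 478 lower. The rescaling changed the log2 ratio of the JNJ-7706621 library over the DMSO library by only -0.0177. The list medians moved more. With a pseudocount of 0.1 they were -1.59 for other acute phase and 1.59 for other mucosal defence genes, with 1 mucosal gene and 1 upstream gene called lower. With 0.5 the mucosal median was 1.36, with 1 called lower. Without a filter, which lets in genes with few reads, medians were -0.060 for complement proteins, -0.017 for inhibitors, 0.053 for receptors, 0.12 for mucosal genes and 0.018 for binding partners, and the acute phase median turned to 0.0031. At 5 FPKM they were 0.47 for complement proteins, 0.52 for receptors, -1.92 for acute phase genes (0 called higher) and 1.28 for mucosal genes (3 called higher), with 1 upstream gene called higher. After rescaling they were -0.28, -0.48 and -0.081 for complement proteins, inhibitors and receptors, -0.82 for acute phase and 1.38 for mucosal genes (1 called lower), with 5 upstream genes called higher. The cause of these shifts was not tested. Extending promoters 50 bases past the start gave C5 2 matches to the broad NF-kB pattern. No paired analysis was possible because each group has 1 library, and for the same reason no library could be left out. Genes with few reads, CFB among them, are limited by depth.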
